A study of Mus musculus with 10 samples.

Results

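Fibronectin, tenascin C and 7 further secreted matrix proteins were examined in 5 mouse mammary tumour cell lines. The 9 genes, Fn1, Tnc, Sparc, Thbs1, Thbs2, Postn, Efemp1, Mgp and Mfap5, were taken as a set by name, as every probe set paired with 1 of these symbols and no other. All 9 were on the array, with 17 of its 45101 probe sets, among 18193 genes with a symbol of their own. Of the 17 probe sets, 16 passed the filter on low signals and 1, a second Tnc probe set, did not, so each of the 9 genes could be tested among 14840 genes.

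Each mesenchymal line (M1 to M4) was grown from a tumour that had relapsed in a female FVB/N mouse injected with E cells. Line E is epithelial and derives from an adenocarcinoma that arose spontaneously in the mammary gland of a female FVB/N-TgN(MMTVneu)202Mul mouse, in which the mouse mammary tumour virus promoter drives the neu oncogene. All 5 lines thus descend from that transgenic tumour, and all were grown in RPMI with fetal bovine serum before total RNA was taken. Every line was hybridized to 2 arrays, 8 of M lines and 2 of E. With 1 epithelial line and 1 line from each relapsed tumour, no test here covers other epithelial tumours. The labels do not say whether paired arrays hold separate cultures, so p-values reflect array-to-array spread within lines, possibly technical.

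These proteins are secreted around cells and fall into groups by what they build. Fibronectin is assembled by cells into fibrils through integrin receptors and is a textbook marker of the mesenchymal state, while tenascin C, SPARC, the thrombospondins and periostin are called matricellular because they tune how cells hold on to the matrix more than they support its structure. EFEMP1 (fibulin-3) and MFAP5 belong to elastic fibres and their microfibrils, and matrix Gla protein, the product of Mgp, keeps soft tissue from calcifying once vitamin K-dependent carboxylation has activated it. In a mammary tumour several such proteins, fibronectin among them, are made by stromal fibroblasts and by tumour cells that have left the epithelial state.

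Values are probe set signals on a linear scale, in units of intensity. Changes are differences of log2(signal + 32) from a limma model across all genes, and a gene was called, written as rose or fell, when it changed 2-fold or more with a Benjamini-Hochberg adjusted p below 0.05. Signals were not on a common scale: the mean signal ran from 294 on an M4 array to 413 on an M2 array, and was 408 and 451 on the E arrays. The median gene changed by -0.21 between the M line mean and E as deposited, by 0.04 after quantile normalization and by 0.02 after scaling to hybridization controls. Arrays of a line correlated at 0.992 to 0.993, and arrays of different lines at 0.873 to 0.976.

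Averaged over the 4 M lines and set against E, 5 of the 9 genes rose (Fn1, Sparc, Thbs2, Efemp1 and Mfap5), 2 fell (Tnc and Mgp), and Thbs1 and Postn were not called. Of all genes tested, 21.8% were called, 7.34% higher and 14.5% lower. That balance depends on the scaling: 1089 genes were higher and 2148 lower as deposited, 1425 and 1304 after quantile normalization, and 1363 and 1391 after scaling to hybridization controls. The median change of the 9 genes was 1.86, beside -0.21 over all genes. The mean hides 2 kinds of pattern. Fn1, Sparc and Mfap5 rose in every M line and Tnc and Mgp fell in every M line, whereas Efemp1 rose in M1 and was not called in M2, M3 or M4, and Thbs2 rose in M1, M2 and M4 but had its high level in M4. When the contrast was fitted to the 5 line means, 2 of the 9 were called, Fn1 (adjusted p = 0.0201, limma) and Sparc (adjusted p = 0.00119, limma), against 10.6% of all genes. In that fit Mfap5 (adjusted p = 0.0699, limma), Thbs2 (adjusted p = 0.487, limma) and Efemp1 (adjusted p = 0.693, limma) were not called. In RNA of a whole culture, fewer cells of a type and less RNA per cell cannot be told apart.

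**Figure D1:**
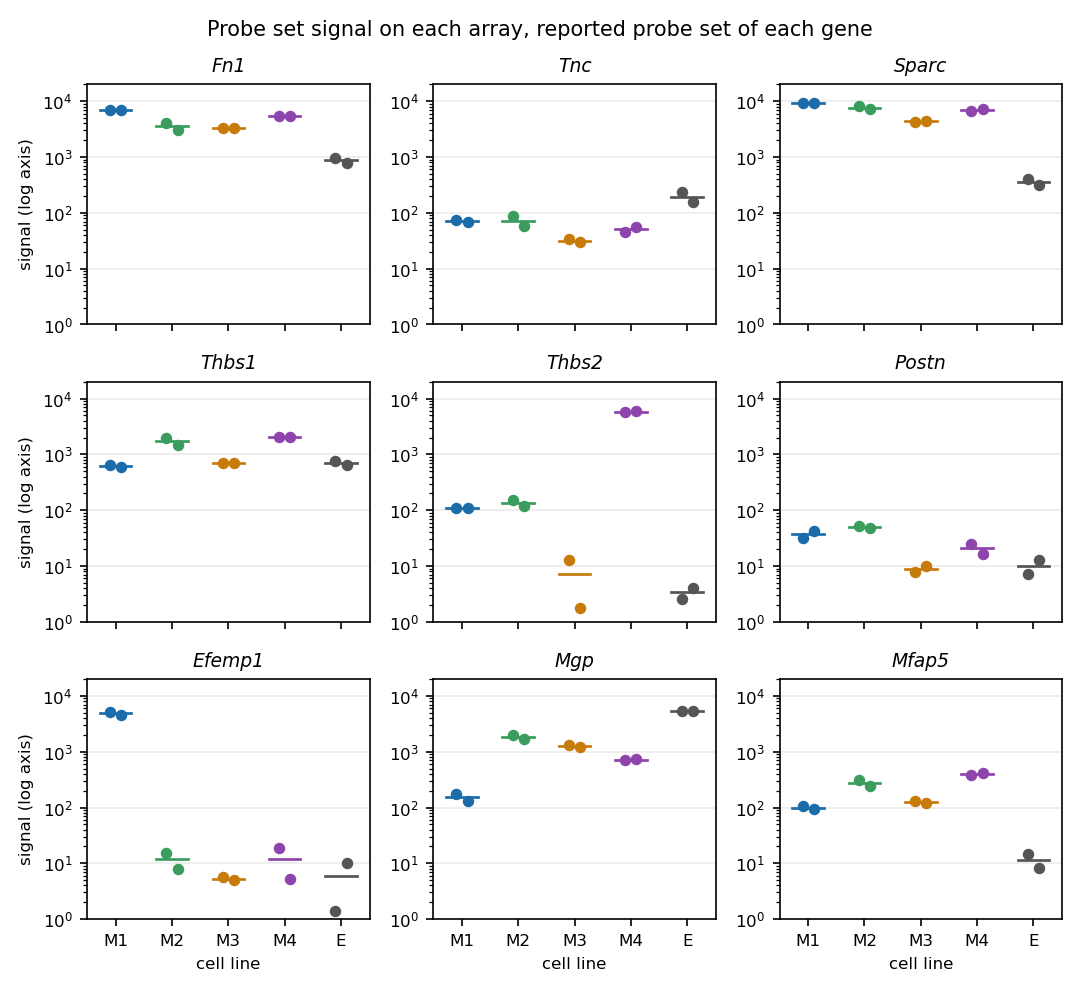
Signal of the reported probe set of each gene on a log axis, by cell line (M1 to M4, then E). Each point is 1 array and each bar the mean of the line. Thbs2 stands at 5676 and 5984 on the M4 arrays and Efemp1 at 5245 and 4552 on the M1 arrays, while Fn1 and Sparc are above E on all 8 M arrays.

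Fn1 encodes fibronectin itself. Its signal was 7056 and 6911 on the M1 arrays, 4090 and 3115 on M2, 3325 and 3380 on M3 and 5419 and 5476 on M4, against 972 and 790 on the E arrays. Every M array lay above both E arrays, with M1 and M4 above M2 and M3. Fn1 rose by 2.36 ± 0.095 (SE) in the mean contrast (adjusted p = 6.84e-27, limma), and by 2.95 (M1), 1.99 (M2), 1.90 (M3) and 2.59 (M4). The order as deposited was M1, M4, M2, M3 and E. M2 and M3 did not differ beyond their spread (difference 0.09 ± 0.12, adjusted p = 0.637, limma), and the other neighbours in that order did. The order of the M lines depends on the scaling. After quantile normalization the Fn1 change was 3.07 (M1), 2.25 (M2), 2.35 (M3) and 3.14 (M4), and after scaling to hybridization controls 3.08, 2.22, 2.32 and 3.16 for the same lines, so that M4 was highest and M2 lowest. A second Fn1 probe set read 224 (M1), 183 (M2), 107 (M3) and 164 (M4), against 39.0 in E, and was called in the mean contrast (1.47) and in each line but M3 (0.97).

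Sparc, which encodes an acidic collagen-binding glycoprotein also called osteonectin, had the largest change of the 9 in the mean contrast. Its signal was 9388 and 9269 on the M1 arrays, 8076 and 7152 on M2, 4229 and 4526 on M3 and 6620 and 7190 on M4, against 405 and 319 on the E arrays. All 8 M arrays exceeded both E arrays, with M3 lowest among the M lines. It rose by 4.12 ± 0.089 (SE; adjusted p = 4.17e-38, limma), with changes between 3.49 in M3 and 4.58 in M1. M1 and M2 (adjusted p = 0.0511, limma) and M2 and M4 (adjusted p = 0.376, limma) did not differ beyond their spread, while M3 was lower than M4 by 0.65. A second probe set gave 4.20, and another, with signals of 3.1 to 37.9 on the M arrays and 13.2 and 23.8 on the E arrays, was not called (0.12).

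Mfap5 encodes a microfibril-associated glycoprotein that sits on the fibrillin scaffold of elastic fibres. Its signal was 105 and 95.4 on the M1 arrays, 314 and 244 on M2, 131 and 119 on M3 and 377 and 407 on M4, against 14.8 and 8.1 on the E arrays. It rose by 2.40 ± 0.14 (SE) in the mean contrast (adjusted p = 5.5e-21, limma) and in each line, by 1.61 (M1), 2.83 (M2), 1.85 (M3) and 3.29 (M4). As deposited, M4 was above M2, M2 above M3, and M3 and M1 did not differ beyond their spread (adjusted p = 0.272, limma). These gaps depend on the scaling. After quantile normalization the changes were 1.63 (M1), 2.81 (M2), 2.11 (M3) and 3.64 (M4). The E signals are low, so the size depends on the pseudocount: with a pseudocount 4 times as large the mean change was 1.25, still called, and the M1 (0.71) and M3 (0.86) changes were not. The second Mfap5 probe set, at 34.1 (M1), 54.0 (M2), 47.6 (M3) and 75.2 (M4) against 24.4 in E, was called in no line, with a mean change of 0.56.

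The 2 genes that fell in every line were Mgp and Tnc. Mgp, whose product inhibits calcification, had signals of 175 and 131 on the M1 arrays, 2018 and 1704 on M2, 1298 and 1220 on M3 and 705 and 745 on M4, against 5403 and 5327 on the E arrays. No M array came near the E arrays, and M1 stood far below the other M lines. Mgp fell by 2.82 ± 0.12 (SE) in the mean contrast (adjusted p = 1.21e-26, limma), with changes of -4.88 (M1), -1.52 (M2), -2.06 (M3) and -2.84 (M4). As deposited, all neighbours in the order E, M2, M3, M4, M1 differed beyond their spread. The closest were M2 and M3 (difference 0.55, adjusted p = 0.00259, limma), and their gap depends on the scaling. The changes were -1.40 (M2) and -1.68 (M3) after quantile normalization, and -1.27 and -1.64 after scaling to hybridization controls. Fitted to 5 line means it was not called (adjusted p = 0.188, limma).

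Tnc encodes tenascin C, a six-armed glycoprotein that binds fibronectin and loosens cell adhesion to it. Its signal was 74.5 and 68.3 on the M1 arrays, 87.2 and 57.3 on M2, 33.8 and 30 on M3 and 45.1 and 55.8 on M4, against 233 and 156 on the E arrays. The groups did not overlap, and the E arrays stood further apart than those of any M line. Tnc fell by 1.37 ± 0.15 (SE) in the mean contrast (adjusted p = 2.2e-11, limma), which is 1.16 below the median gene. No pair of M lines was called different. The fall lay near the fold limit: the change was -0.997 after quantile normalization and -0.80 with a pseudocount 4 times as large, neither called, and the fit to 5 line means gave an adjusted p of 0.0518 (limma). After quantile normalization Tnc was called in M3 but not in M1 (-0.81), M2 (-0.87) or M4 (-0.93), and without E replicate 1 it was not called in M1 (-0.86) or M2 (-0.87).

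Thrombospondins 1 and 2 are trimeric proteins that bind the receptors CD36 and CD47 and restrain blood vessel growth. Thrombospondin 1 can also activate latent TGF-beta. Thbs1 had signals of 644 and 589 on the M1 arrays, 1939 and 1472 on M2, 713 and 706 on M3 and 2053 and 2063 on M4, against 751 and 646 on the E arrays. M2 and M4 lay above E on both arrays, M3 lay within the E range, and M1 just under it. Thbs1 rose in M2 by 1.24 ± 0.15 and in M4 by 1.52 ± 0.15 (SE; adjusted p = 6.26e-10 and 1.48e-12, limma), with changes of -0.17 in M1 and 0.03 in M3. As deposited, M4 and M2 did not differ beyond their spread (adjusted p = 0.146, limma). Nor did M3, E and M1 as neighbours, whereas M2 was above M3 by 1.22. The gaps between neighbours depend on the scaling. After scaling to hybridization controls the changes against E were -0.03 (M1), 1.47 (M2), 0.44 (M3) and 2.08 (M4). After quantile normalization the change was 0.58 in M3 and 2.16 in M4. The mean change of 0.65 ± 0.12 was below the fold limit, and it reached 1.08 and was called after quantile normalization. A second probe set gave 1.18 in M4, called, and 0.97 in M2, below the limit.

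Thbs2 showed the largest difference between M lines of the 9 genes. Its signal was 109 and 112 on the M1 arrays, 150 and 117 on M2, 12.8 and 1.8 on M3 and 5676 and 5984 on M4, against 2.6 and 4.1 on the E arrays. M4 stood apart from all other lines, M1 and M2 lay together at an intermediate level, and M3 and E were both near the bottom of the scale. Thbs2 rose in M4 by 7.37 ± 0.17 (SE; adjusted p = 3.17e-36, limma), in M1 by 2.01 and in M2 by 2.22, and its change in M3 was 0.14 (adjusted p = 0.523, limma). The mean change was 2.93 ± 0.14, and 1.46 without M4. M4 exceeded the mean of the other M lines by 5.92 ± 0.14. All 3 Thbs2 probe sets were called in M4, with changes of 7.37, 5.62 and 6.04, and in M2, but in M1 the other pair gave 0.84 and 0.75, not called. With a pseudocount 4 times as large the M1 (0.86) and M2 (0.99) changes were not called, nor was M1 with signals floored at 64 (0.79). The E and M3 signals are near background, so the size of the M4 change ranged from 5.50 with a pseudocount 4 times as large to 9.01 with a pseudocount of 8.

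Efemp1, encoding fibulin-3, a short fibulin of basement membranes and elastic tissue, was high in 1 line. Its signal was 5245 and 4552 on the M1 arrays, 15.4 and 8.0 on M2, 5.6 and 5.0 on M3 and 18.6 and 5.3 on M4, against 1.4 and 10.3 on the E arrays. The M1 arrays stood far above every other array, and the remaining lines overlapped. Efemp1 rose in M1 by 7.03 ± 0.18 (SE; adjusted p = 2.65e-34, limma) and changed by 0.21 in M2, -0.01 in M3 and 0.21 in M4, none called. The E signals are near background, and the M1 change was 5.23 with a pseudocount 4 times as large and 8.54 with a pseudocount of 8, called in both. No neighbours in the order below M1 differed beyond their spread. The call in the mean contrast (1.86) rested on M1, since without that line the change was 0.14 (adjusted p = 0.539, limma). The array has 1 Efemp1 probe set, so the M1 signal has no second probe set behind it.

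Postn, encoding periostin, a protein that links tenascin C and collagen to integrins, stayed low in all lines. Its signal was 32.2 and 41.8 on the M1 arrays, 52.3 and 48.3 on M2, 7.8 and 10.1 on M3 and 25 and 16.5 on M4, against 7.1 and 12.6 on the E arrays. M1, M2 and M4 lay above E on both arrays and M3 overlapped with it. No line was called against E, with changes of 0.72 (M1), 0.98 (M2), -0.03 (M3) and 0.33 (M4). In M1 the change passed the limit with a pseudocount of 8 (1.34). In M2 it did so with a pseudocount of 8 (1.72), with median centring (1.10), after scaling to hybridization controls (1.01), and without E replicate 2 (1.07) or M2 replicate 2 (1.01). All 10 signals were below 64.

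**Figure D2:**
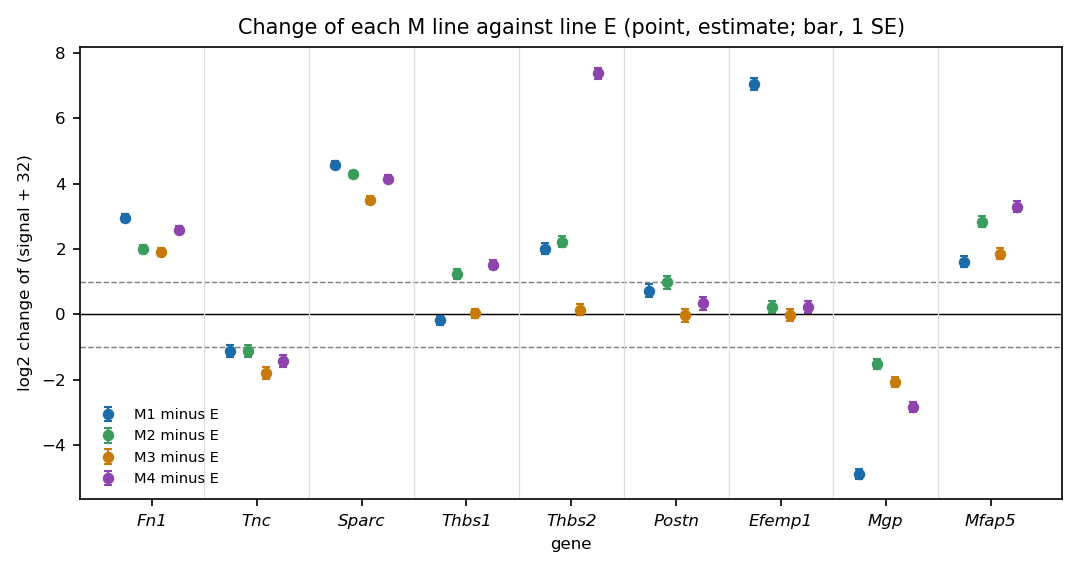
Log2 change of (signal + 32) of each M line against E for the 9 genes, as estimate and standard error. Dashed lines mark the 2-fold limit. Fn1, Sparc and Mfap5 lie above it and Tnc and Mgp below it in all 4 lines, while Thbs2 in M4 (7.37) and Efemp1 in M1 (7.03) stand far from the other lines.

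The promoters of 4 genes are printed because their genes represent the patterns seen, a rise in all M lines (Sparc), a fall in all M lines (Tnc), a level high in M4 (Thbs2) and a level high in M1 (Efemp1). RefSeq promoter windows of build GRCm38.p6 run from 250 bases before to 50 after the start site, 5′ to 3′ on the strand of the gene, and 5 of the 9 genes (Tnc, Sparc, Thbs2, Postn and Efemp1) had an entry. Capitals mark matches on either strand to TGANTCA (AP-1), TGACGTC (CRE), GGAATG (TEAD), CANNTG (E-box) or CAGAC (SMAD). No 2 matches overlap in the windows printed. Of the 2 overlapping Tnc windows the upstream one is shown.
Sparc promoter, chr11:55420031-55420330, strand -: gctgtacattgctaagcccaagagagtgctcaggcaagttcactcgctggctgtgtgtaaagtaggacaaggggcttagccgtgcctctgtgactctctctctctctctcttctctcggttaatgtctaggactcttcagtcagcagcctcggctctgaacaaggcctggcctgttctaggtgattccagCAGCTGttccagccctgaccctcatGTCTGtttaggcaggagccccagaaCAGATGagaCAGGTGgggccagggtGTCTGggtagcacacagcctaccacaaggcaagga
Tnc promoter, chr4:64046966-64047265, strand -: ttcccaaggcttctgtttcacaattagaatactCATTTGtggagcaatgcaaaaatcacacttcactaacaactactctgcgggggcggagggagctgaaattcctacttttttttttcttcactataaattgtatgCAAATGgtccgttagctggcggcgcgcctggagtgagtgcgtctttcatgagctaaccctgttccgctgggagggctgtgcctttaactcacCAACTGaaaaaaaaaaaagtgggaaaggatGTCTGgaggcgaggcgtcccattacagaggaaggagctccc
Thbs2 promoter, chr17:14694213-14694512, strand -: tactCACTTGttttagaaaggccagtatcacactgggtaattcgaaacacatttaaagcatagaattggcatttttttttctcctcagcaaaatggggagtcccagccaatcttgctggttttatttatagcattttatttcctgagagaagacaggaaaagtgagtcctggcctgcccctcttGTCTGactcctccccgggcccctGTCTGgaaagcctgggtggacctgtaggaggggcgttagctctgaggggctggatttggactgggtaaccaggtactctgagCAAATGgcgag
Efemp1 promoter, chr11:28852955-28853254, strand +: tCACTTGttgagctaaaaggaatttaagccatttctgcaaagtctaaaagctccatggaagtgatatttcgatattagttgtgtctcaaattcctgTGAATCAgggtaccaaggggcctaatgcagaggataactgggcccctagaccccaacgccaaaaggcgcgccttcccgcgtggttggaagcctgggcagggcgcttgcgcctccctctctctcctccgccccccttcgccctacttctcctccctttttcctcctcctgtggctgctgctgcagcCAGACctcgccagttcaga

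The Sparc window held 3 E-box and 2 SMAD matches, the Tnc window 3 and 1, the Thbs2 window 2 and 2, and the Efemp1 window 1 and 1. Among all 32851 promoter windows of this length, 72.3% held the E-box letters and 49.6% the SMAD letters, so these matches are common. The Efemp1 window held 1 AP-1 match, which 7.81% of all windows have, and none of the 4 windows held the CRE letters (3.21% of all windows) or the TEAD letters (14.7%). A match is a description of letters and not of a binding site.

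Against E, 7 of the 9 genes were called in M1, M2 and M4 each (5 higher and 2 lower), and 5 in M3 (3 higher and 2 lower). Over all genes tested, 21.1% were called in M1 (8.6% higher and 12.5% lower), 20.4% in M2 (8.58% and 11.8%), 27.5% in M3 (7.7% and 19.8%) and 26.8% in M4 (6.65% and 20.1%). Genes called higher in each of the 4 lines made up 4.23% of all genes and included 3 of the 9, and genes called lower in each of the 4 made up 9.02% and included 2 of the 9. These 4 comparisons share the E arrays and are not independent of each other. M3 had the fewest calls and, as deposited, the lowest line mean of the 4 M lines in 6 of the 9 genes, namely Fn1, Tnc, Sparc, Thbs2, Postn and Efemp1, though for Fn1 M2 was lowest under each of the other scalings. Only for Sparc and Thbs2 did M3 differ beyond the spread from the next M line up. The adjusted p was 0.637 for Fn1 against M2 (limma). Against M4 it was 0.126 for Tnc, 0.161 for Postn and 0.395 for Efemp1 (limma). For Efemp1, Thbs2 and Postn the M3 level could not be told from E. The same held for Efemp1 in M2 and M4 and for Postn in M4.

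Whether the M lines differed among themselves was tested with a moderated F test across the 4 lines, with a called gene also spanning at least 2-fold between its highest and lowest line. Of the 9 genes 8 were called, the exception being Tnc (range 0.69, adjusted p = 0.00251, limma), beside 22.4% of all genes. The ranges were 7.23 for Thbs2, 7.04 for Efemp1, 3.36 for Mgp, 1.69 for Thbs1, 1.68 for Mfap5, 1.09 for Sparc, 1.05 for Fn1 and 1.01 for Postn, with a median over the 9 of 1.68 beside 0.61 over all genes. The last 3 sat at the fold limit: after quantile normalization or scaling to hybridization controls the other 5 were called, with ranges of 0.90 and 0.94 for Fn1, 0.79 and 0.80 for Sparc and 0.92 and 0.95 for Postn. Between pairs of M lines, 4 of the 9 were called in M1 against M2 (4.54% of all genes), 5 in M1 against M3 (11%), 5 in M1 against M4 (8.96%), 3 in M2 against M3 (7.29%), 2 in M2 against M4 (6.32%) and 3 in M3 against M4 (10.3%).

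M1 and M4 each carried 1 of the 9 genes far above the other M lines. Against the mean of the other M lines, M1 was higher in Efemp1 by 6.90 ± 0.15 (SE) and lower in Mgp (-2.74), Thbs2 (-1.23), Thbs1 (-1.10) and Mfap5 (-1.05), so 5 of the 9 were called where 5.35% of all genes were. M4 was higher in Thbs2 by 5.92 ± 0.14, in Mfap5 by 1.19 and in Thbs1 by 1.16, and lower in Efemp1 (-2.20), so 4 of the 9 were called where 5.53% of all genes were. These averages take in single lines that stand apart. M4 is one of the lines averaged for M1, and in Thbs2 M1 was above M3 by 1.87 and was not called different from M2 (-0.21), while in Thbs1 (-0.20) and Mfap5 (-0.25) it was not called different from M3. M1 is one of the lines averaged for M4, and in Efemp1 M4 was not called different from M2 (adjusted p = 0.992, limma) or M3 (adjusted p = 0.395, limma). The change of M2 against M4 was -0.28 in Thbs1 and -0.46 in Mfap5, neither called. Of the paralogues, both Thbs1 and Thbs2 rose in M2 and M4, and in M1 the changes were 2.01 for Thbs2 and -0.17 for Thbs1.

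**Figure D3:**
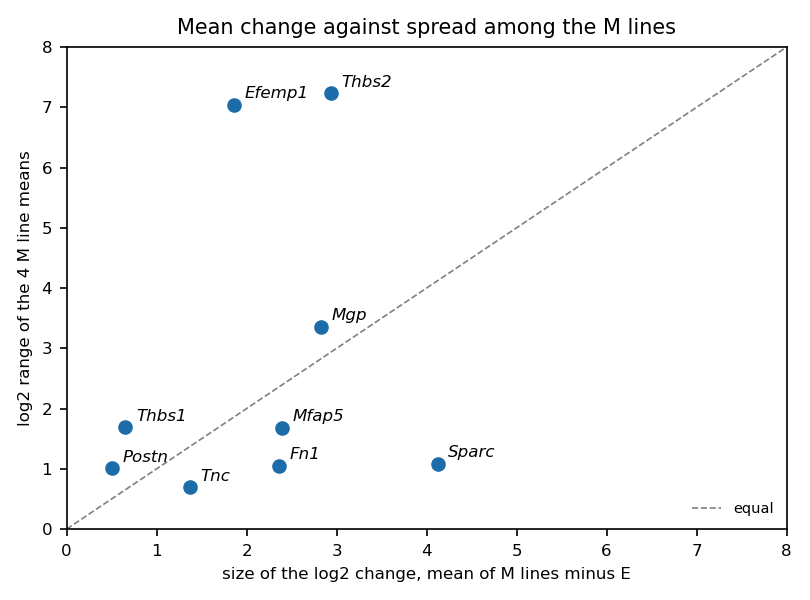
Size of the mean change, M lines against E (horizontal) and log2 range of the 4 M line means (vertical) for each of the 9 genes, with a dashed line of equality. Sparc (4.12 and 1.09) and Fn1 (2.36 and 1.05) lie well below the line, and Efemp1 (1.86 and 7.04) and Thbs2 (2.93 and 7.23) well above it.

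Genes with the most similar pattern over the 10 arrays were listed by Pearson's r, as a description in which the arrays share their lines and their signal scale. Efemp1 was followed most closely by Ncam1 (r = 0.998), a neural adhesion molecule with a signal of 197 (M1), 3.9 (M2), 2.4 (M3) and 2.9 (M4), against 3.1 in E. Thbs2 was followed by Hgf (r = 0.986), encoding hepatocyte growth factor, and then by Ptx3 (r = 0.976), encoding a long pentraxin, which had a signal of 900 in M4 and 31.7 or less in the other lines. Mgp was followed by Csf3 (r = 0.993), encoding granulocyte colony-stimulating factor, at 258 (M1), 2378 (M2), 1943 (M3) and 1442 (M4), against 7403 in E. The gene nearest to Mfap5 was Thbs3 (r = 0.981), a further thrombospondin. Sparc was nearest to Glul (r = 0.999), the glutamine synthetase gene, Fn1 to Gng10 (r = 0.992), Thbs1 to Chpf2 (r = 0.992), Tnc to Setd2 (r = 0.996) and Postn to Klhl23 (r = 0.960).

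Relatives of these proteins moved in both directions. Of 24 listed matricellular and glycoprotein genes, 19 were tested, and 8 rose, 2 fell and 9 were not called. Of all genes, 7.34% were higher and 14.5% lower. The list had a median change of 0.23 beside -0.21 over all genes. Tgfbi, encoding a fasciclin-domain protein related to periostin, rose by 5.81 ± 0.12 (SE), with line means of 1345 to 3327 in the M lines, against 5.7 in E. Of 5 tested CCN genes 3 rose, Ccn3 (3.97), Ccn4 (2.61) and Ccn5 (1.71). Ccn1 was not called in the mean contrast (0.36) but rose in M1 (1.62) and M2 (1.05). Ccn2, encoding connective tissue growth factor, fell by 3.11, with signals of 829 (M1), 348 (M2), 72.9 (M3) and 83.4 (M4), against 2122 in E. Sparcl1, the SPARC-like paralogue, rose by 2.71, and Fndc1, encoding a fibronectin type III domain protein, fell by 5.30. With 5 line means the adjusted p was 0.148 for Ccn2, 0.129 for Ccn5 and 0.0608 for Sparcl1, and at most 0.00589 for Tgfbi, Ccn3 and Fndc1 (limma).

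Of 18 elastic fibre and microfibril genes 14 were tested, and 6 rose, 1 fell and 7 were not called. Over all genes, 7.34% were higher and 14.5% lower. The median change of the list was 0.38 beside -0.21 over all genes. Emilin1 rose by 3.86 ± 0.13, Fbln2 by 2.91 and Fbln5 by 2.67, the last being the fibulin needed to lay down elastin. Emilin2 rose in the mean contrast by 1.40, mostly through M4 (3.52). Fitted to 5 line means Emilin2 was not called (adjusted p = 0.482, limma), while Emilin1, Fbln2 and Fbln5 were (adjusted p at most 0.0257, limma). The gene that fell, Fblim1 (-2.16), encodes a filamin-binding adaptor inside the cell and not a fibre protein. Eln, encoding elastin itself, had signals of 26.2 (M1), 46.3 (M2), 40.8 (M3) and 34.9 (M4), against 31.6 in E, and was not called.

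Of 18 receptor genes 16 were tested, and 1 rose, 4 fell and 11 were not called, where 7.34% of all genes were higher and 14.5% lower. Their median change was -0.62. The one that rose was Itga5 (3.27 ± 0.13), the alpha subunit of the main fibronectin receptor, with signals of 914 (M1), 331 (M2), 201 (M3) and 302 (M4), against 9.8 in E. Its partner Itgb1 was not called in the mean contrast (-0.69) but fell in M4 (-1.41). Itga8 (-3.34), a receptor subunit for fibronectin and tenascin, Itgb3 (-2.25), Sdc4 (-2.20), the syndecan that works with integrins on fibronectin, and Itgb5 (-1.15) fell. With 5 line means Itga8 (adjusted p = 0.075, limma) and Itgb5 (adjusted p = 0.224, limma) were not called. After quantile normalization 2 rose and 3 fell.

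Genes of matrix assembly and modification mostly rose. Of 13 listed, 12 were tested, and 8 rose, 2 fell and 2 were not called, where 7.34% of all genes were higher and 14.5% lower. The list median was 2.14 beside -0.21 over all genes. Htra1 (6.99 ± 0.09), a secreted serine protease, Lox (6.98), the lysyl oxidase that crosslinks collagen and elastin, and Pcolce (5.71), an enhancer of procollagen processing, rose in every line. Fam20c (4.38), a kinase of secreted proteins, and Vkorc1 (4.05), the vitamin K reductase that keeps carboxylation going, rose too. Ggcx, the carboxylase that acts on matrix Gla protein, changed by -0.57 and was not called. The 2 that fell were Bmp1 (-2.40) and Tgm2 (-1.55), named after their values were seen. Tgm2 was not called with 5 line means (adjusted p = 0.162, limma).

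Among 11 tested TGF-beta genes, which are known inducers and feedback genes of matrix production, 2 rose, 3 fell and 6 were not called, beside 7.34% higher and 14.5% lower over all genes. Tgfb1 rose by 2.58 ± 0.13 and Tgfbr3 by 1.35, and Tgfb2 (-4.00), Tgfb3 (-3.64) and Skil (-1.71) fell. Skil was not called with 5 line means (adjusted p = 0.11, limma). Smad2, Smad3, Smad4 and Smad7, the intracellular transducers and inhibitor of the pathway, were not called in the mean contrast. By line, Smad7 fell in M3 (-1.07) and M4 (-1.95), and Smad3 (-1.28) and Smad4 (-1.09) fell in M4. Tgfbr1, not called in the mean contrast either (0.71), rose in M2 (1.07) and M4 (1.21). The median gene changed by -0.25 in M3 and -0.35 in M4 as deposited. Smad7 in M3, and Smad3 and Smad4 in M4, lay less than 2-fold below that median. After quantile normalization 3 rose and 3 fell.

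**Figure D4:**
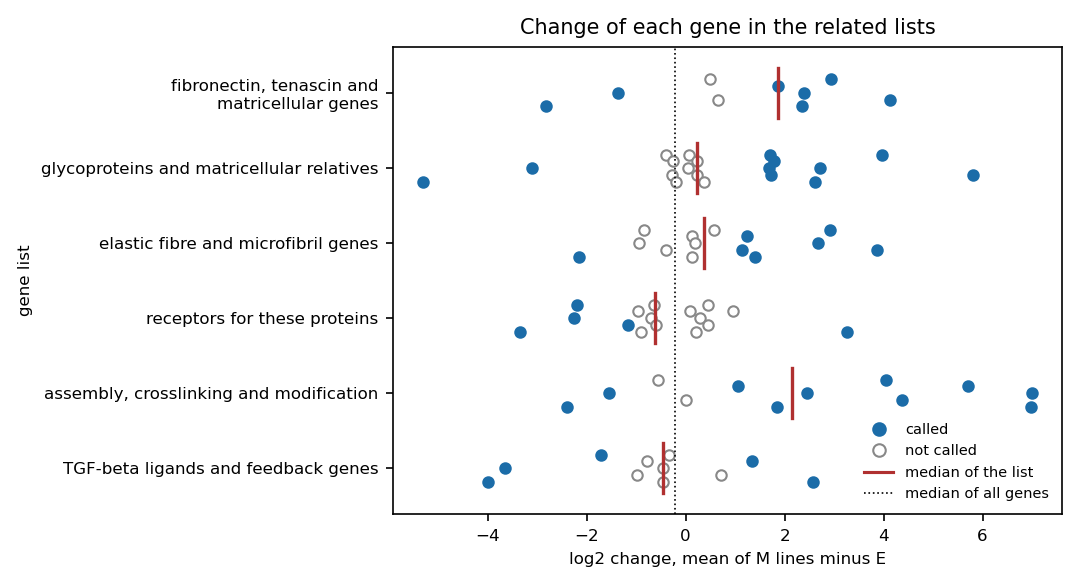
Log2 change between the M line mean and E for every tested gene of the 9-gene set and of 5 related lists. Filled points were called, open points were not, red bars are list medians and the dotted line is the median of all genes (-0.21). The list medians run from -0.62 for the receptors to 2.14 for assembly and modification genes.

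Markers of other cells were read beside these results, in a contrast where 7.34% of all genes were higher and 14.5% lower. All 11 tested epithelial markers fell, with a summed signal of 739 to 8858 on the M arrays, against 56830 and 60590 on the E arrays, and Krt8, which by line fell in M1 alone, made up most of what was left in M2, M3 and M4. Of 10 tested stromal fibroblast markers 9 rose, and their summed signal was 9530 to 27700 on the M arrays, against 110 and 175 on the E arrays. By line it was 18040 (M1), 15730 (M2), 9588 (M3) and 27460 (M4), lowest in M3 and highest in M4. Single markers did not all follow that order. Among the M lines, Dcn was lowest in M1 (4252), Col1a2 highest in M1 (9558) and Pi16 highest in M3 (196). Lum stood at 1311 in M4 and at 14.8 or less in the other M lines. No marker in these lists was listed at 0 as a line mean. Their part in the results on the 9 genes was not tested.

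Leukocyte markers gave no rise: of 10 tested, 1 fell and 9 were not called, and the summed signal was 520 to 947 on the M arrays, against 8194 and 8231 on the E arrays, of which Cd14 held 7956 in E. Ptprc, the common leukocyte antigen gene, had line means of 5.1 to 15.1 in the M lines and 6.5 in E. The 5 tested endothelial markers changed by -0.15 to 0.35 in the mean contrast, and by line Cdh5 rose in M2 (1.09, with a signal of 50.4 in M2 against 6.75 in E). They had summed signals of 54.0 to 116 on the M arrays and 34.7 and 74.8 on the E arrays. Of 4 tested pericyte markers only Notch3 was called, and it fell (31.4 or less in the M lines, against 301 in E). Among 6 tested myoepithelial and basal markers 1 rose in the mean contrast, Acta2, and Krt14 rose in M2 (1.64, with a signal of 84.0 in M2 against 4.95 in E). Acta2 had a signal of 3710 (M1), 345 (M2), 186 (M3) and 762 (M4), against 140 in E.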

How the data were processed

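Total RNA of 10 samples from 5 lines was read as probe set intensity on 1-colour arrays. The intensity values were deposited by the authors on a linear scale and had been made with GCOS 1.3, per the submitters' processing notes. Which signal algorithm, scaling target and background correction were used is unknown. Probe sets were named from GEO's platform annotation, in which 34945 had 1 gene symbol, 932 several and 9160 none, and no symbol needed updating. Signals were not rescaled, and log2(signal + 32) was computed from the deposited values. Probe sets above the 40th percentile of their array on at least 2 arrays were kept, and each gene was represented by the kept probe set with the highest mean signal. With limma 3.58.1 (R 4.3.3), one linear model over the 5 lines was fitted to 14840 genes, with a trended prior and 5 residual degrees of freedom. It was checked on simulated data with known changes. Neighbouring lines in a gene's order of levels were said to differ on the adjusted p alone. The labels give no batch, so none was fitted, and the precision is limited by the 2 arrays per line. Alternatives were other pseudocounts, a floor of 64, other scalings, no filter, the mean of kept probe sets, an untrended prior, a replicate block, line means, and leaving out each array or line. Replicate numbers did not pair samples: deviations of same-numbered arrays correlated at -0.0711 to 0.0576. All 9 genes were described, and from each related list up to 5 called genes with the largest mean change were named. Ccn1, Ccn4, Ccn5, Eln, Itgb1, Ggcx, Bmp1, Tgm2, Tgfbr1, the Smad genes and single cell type markers were named after their values were seen. For each gene the 2 genes with the highest Pearson's r over the arrays were found, and the first is given, with the second for Thbs2 only. The genes and lists were chosen with earlier results of these data known.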

Additional observations from a re-analysis of the deposited data

Results flagged for a closer look

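For 8 of the 9 genes the change against E differed between the M lines by the moderated F test of limma. Each also had a span of at least 2-fold between line means. Of all genes, 22.4% were called in this way. The log2 span was 7.23 for Thbs2, 7.04 for Efemp1, 3.36 for Mgp, 1.69 for Thbs1, 1.68 for Mfap5, 1.09 for Sparc, 1.05 for Fn1 and 1.01 for Postn. After quantile normalization or scaling to hybridization controls, 5 were called, without Sparc, Fn1 and Postn. With the largest pseudocount the Postn span was 0.38, also not called. Thbs2 was highest in M4 and lowest in M3, Efemp1 highest in M1, and Mgp highest in M2 and lowest in M1. As the 4 changes share the E arrays, each span is a difference among M lines alone.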

How the results depend on the processing

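Over the pseudocounts, floor, scalings, filter, probe set rule, prior and block, the count of the 9 genes called ran from 4 to 8 in M1 (7 as reported), 5 to 8 in M2 (7), 4 to 5 in M3 (5), 6 to 7 in M4 (7), 6 to 7 in the mean contrast (7) and 5 to 8 in the F test (8). It moved by over 1.5 times in 4 cases: in M1 it was 4 with the largest pseudocount, with 5 line means it was 2 in the mean contrast, and in the F test it was 5 after quantile normalization and 5 after scaling to hybridization controls. With the replicate block 7 genes were called in the mean contrast, and it changed no other call count of the 9; replicate numbers do not pair these samples. Leaving out each array gave 7 called in the mean contrast, 6 to 7 in M1, 6 to 8 in M2, 5 in M3, 7 in M4 and 7 to 8 in the F test. Over all genes, the largest pseudocount gave 2055 calls in M1 (3134 as reported), 1970 in M2 (3022), 2461 in M4 (3970), 2081 in the mean contrast (3237) and 1830 in the F test (3317), and 5 line means gave 1572 in the mean contrast. After quantile normalization the higher and lower calls were 1505 and 1390 in M1 (1276 and 1858 as deposited), 1490 and 1297 in M2 (1274 and 1748), 1785 and 1733 in M3 (1143 and 2938) and 1537 and 1406 in M4 (987 and 2983).

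Sign changes were confined, among the 9 genes and these alternatives, to values that were not called. Efemp1 in M3 (-0.01) was 0.21 with median centring, 0.020 with a pseudocount of 8, 0.036 after quantile normalization, 0.039 after scaling to hybridization controls, and -0.18 to 0.16 when arrays were left out. Efemp1 in M4 (0.21) was -0.011 to 0.43 when arrays were left out. With a floor of 64 Postn was 0 in every contrast with E, since no signal passed it, as was Efemp1 in M2, M3 and M4 and Thbs2 in M3. Postn in M3 (-0.03) was 0.19 with median centring, 0.043 after quantile normalization, 0.062 after scaling to hybridization controls and -0.12 to 0.066 when arrays were left out. Thbs1 in M1 (-0.17) was 0.076 after quantile normalization, and in M3 (0.03) it was -0.10 for the mean of probe sets and -0.079 to 0.13 when arrays were left out. Thbs2 in M3 (0.14) was -0.065 for the mean of probe sets and -0.064 to 0.34 when arrays were left out. The cause of these changes was not tested. Of the single-gene comparisons with alternatives, 1058 kept their call with no change of sign, 43 lost a call, 7 gained one and 17 changed sign. Over all of these, 10 values were 0 with the floor and were judged by their call alone. Signals near background limit Postn, Tnc, Mfap5 in E, and Thbs2 and Efemp1 outside M4 and M1.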
